A study of Mus musculus with 2 samples.

Results

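Type I interferon stimulated genes were followed in TR1 cells (type 1 regulatory T cells, CD4 T cells that make IL-10) of the small intestine, with and without an intact IL-10 receptor. The list holds 40 genes, and a gene was taken as measured when a probe set of the array was annotated with that symbol and no other. Where several probe sets met this, the brightest on average over both arrays was used. By this rule 38 of the 40 genes were measured, among 19937 genes on the array. Isg15 had only a probe set that lists a second symbol too, and Ifi44 had none in the annotation used here. Each value is log2 RMA expression (a background-corrected, normalized probe set brightness) from a single array, and each difference is impaired minus wildtype.

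The study holds 2 samples, 1 per genotype. The wildtype sample came from mice labelled as having wildtype IL10RA, and the impaired sample from CD4-DNIL-10R transgenic mice, in which, as background on this line, a dominant-negative IL-10 receptor chain is driven by Cd4 regulatory sequences and so reaches T cells in general, not TR1 cells alone. Mice of both groups had received anti-CD3 antibody, clone 2C11, which activates T cells through their receptor: 15 μg into the peritoneum, 2 times on alternate days. The labels give 4 or 48 hours between the last injection and sacrifice without saying which applies to which sample, so a difference in time cannot be told apart from one in genotype. The labels are silent on the age, strain and number of the mice and on how the cells were sorted. With 1 array per group there is no replicate error, and no difference was tested.

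Type I interferons (the interferon alpha family and interferon beta) bind a receptor made of IFNAR1 and IFNAR2, which activates the kinases JAK1 and TYK2. These phosphorylate STAT factors, STAT2 among them, which join IRF9 in the complex ISGF3, and ISGF3 binds the interferon stimulated response element of its target genes. The targets include sensors of viral RNA, enzymes that degrade RNA or block translation, proteins that hold virus particles at membranes, and the feedback inhibitor USP18. Type III interferons, which act mostly on epithelium, use the same complex through IFNLR1 and IL10RB, a chain shared with the IL-10 receptor. Interferon gamma, which has a receptor of its own, induces many of the same genes.

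Short stretches around the transcription start are shown for 6 genes, because the response element is the feature by which these genes are known. The letters searched were GAAA, any 2 bases and GAAA again, on both strands (read as TTTC, any 2 bases and TTTC on the other), within 250 bases before and 50 bases after each start, in RefSeq sequence of GRCm38.p6. Overlapping matches were each counted. The sequences run 5′ to 3′ on the strand of the gene, and capitals mark the matches. The first 4 are the genes with the largest difference among measured members that hold a match, and the last pair are those with the smallest absolute difference.
Ifitm3 (chr7:141010715-141010782, minus strand): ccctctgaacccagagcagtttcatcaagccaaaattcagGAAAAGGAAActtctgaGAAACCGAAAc
Ifitm2 (chr7:140955958-140956047, minus strand): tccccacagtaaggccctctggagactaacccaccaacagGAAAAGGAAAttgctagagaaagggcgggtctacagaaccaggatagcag
Ifit3 (chr19:34583333-34583456, plus strand): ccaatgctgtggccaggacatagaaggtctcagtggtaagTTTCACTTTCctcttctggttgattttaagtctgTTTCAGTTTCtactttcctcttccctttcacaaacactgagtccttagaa
Rsad2 (chr12:26456523-26456612, minus strand): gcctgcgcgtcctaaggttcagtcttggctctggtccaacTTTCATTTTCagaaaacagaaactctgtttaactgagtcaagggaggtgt
Ifih1 (chr2:62646206-62646235, minus strand): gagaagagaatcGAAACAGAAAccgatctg
Oas1a (chr5:120907496-120907585, minus strand): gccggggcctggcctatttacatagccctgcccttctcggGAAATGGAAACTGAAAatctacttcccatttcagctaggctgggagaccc

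Matches were found at 14 of the 30 listed genes with a sequence in the table (46.7%), against 1079 of all 27025 genes (3.99%). The 2 sites of Ifitm3 began 3 and 20 bases after the annotated start, and the site of Ifih1 began 33 bases after it. Those of Ifit3 began 156 and 122 bases before the start, that of Rsad2 120 bases and that of Ifitm2 46 bases before it. The 2 sites of Oas1a overlap and began 20 and 14 bases before the start. A match is a description of these letters and not a measured binding site. The lack of a match to these letters in this window does not show that a gene lacks a response element. The 13 measured genes with a match had a median difference of 0.21 (range -0.18 to 0.66), and the 15 measured genes with a sequence but no match had 0.25 (range -0.14 to 0.93). The 2 ranges overlapped over most of their length.

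The general T cell markers were nearly equal in both samples, whereas Cd8a and transcripts of other intestinal cells were not. All 13 measured T cell markers lay above the median of all probe sets (6.91) in both samples, with a median difference of -0.02, and Cd4 was at 13.14 on the wildtype and 13.18 on the impaired array. Il10 was at 12.94 and 12.92. Cd8a, a co-receptor chain of CD8 T cells, was at 12.12 and 11.42 (-0.70), bright on both arrays and dimmer on the impaired one. The part of CD8 T cells in the members' values was not tested. Il10ra, whose protein the transgene interferes with, was at 9.92 and 12.30, and whether its probe set detects the transgene is not known. All 16 enterocyte markers had a difference above 0 (median 0.90), with summed linear signals of 21074 on the wildtype and 37484 on the impaired array. Neutrophil markers had a median of 1.68 over 12 genes, with summed signals of 2159 and 6757, although 7 of the 12 on the wildtype and 4 on the impaired array lay below the median of all probe sets. Pancreatic acinar markers went the other way, with a median of -1.58 over 8 genes. In samples of this kind, a different number of cells of 1 type and a different amount of RNA per cell cannot be told apart.

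Interferon stimulated genes were slightly brighter in the impaired sample as a group. Of the 38 measured members, 32 (84.2%) had a difference above 0, against 51.5% of all genes. The median difference was 0.18 (1.13-fold), against 0.01 for all genes. At 1.5-fold or more, 5 members (13.2%) were brighter, against 3.58% of all genes, and 0 were dimmer, against 1.8% of all genes. No member reached 2-fold in either direction (0 of 38), whereas 1.02% of all genes did. The differences ran from -0.18 (Eif2ak2) to 0.93 (Oasl2), and 20 of the 38 lay within 0.2 of 0. Only Oasl2 and Ifitm1 lay outside the range that holds the middle 95% of all genes, -0.53 to 0.69.

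**Figure D1:**
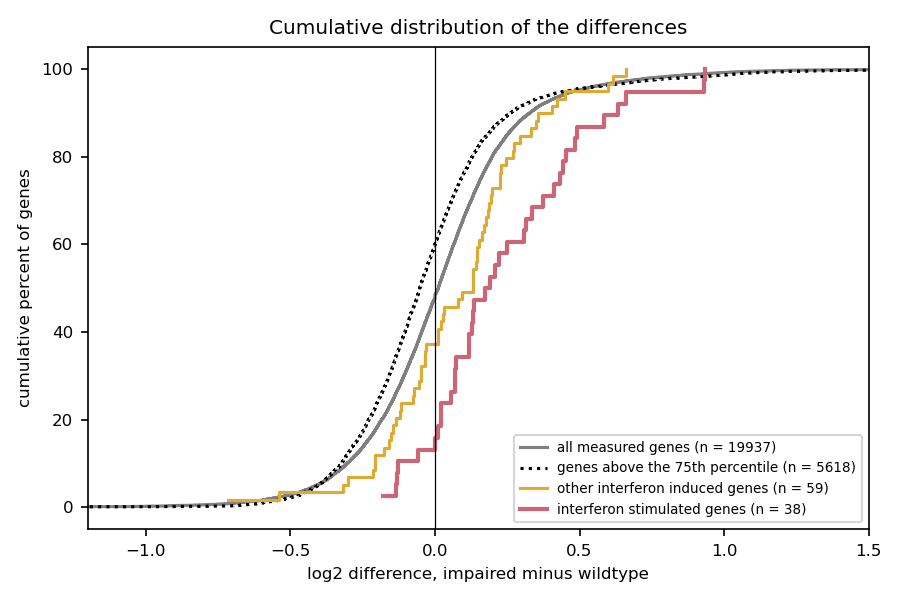
Cumulative percent of genes (vertical axis) by log2 difference, impaired minus wildtype (horizontal axis), for 38 interferon stimulated genes, 59 other interferon induced genes, all 19937 measured genes and the 5618 of them with a mean at or above the 75th percentile of probe sets; differences beyond the axis are cut off. The curve of the interferon stimulated genes lies to the right of the others over most of its length, with a median of 0.18 against 0.01 for all genes.

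Among the transcription factors, Irf7 had the largest difference and Irf9 almost none. IRF7 is the factor that amplifies interferon alpha production, and its gene is itself induced by interferon. Irf7 was at 10.40 on the wildtype and 10.81 on the impaired array, a difference of 0.41 (1.33-fold), higher than that of 93.2% of all genes. Stat2, a subunit of ISGF3, was at 10.14 and 10.33 (0.19). Irf9, the DNA-binding partner of ISGF3, was at 10.84 and 10.86 (0.02). All 3 lay above the median of all probe sets in both samples.

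The sensors of foreign nucleic acid were nearly equal in the 2 samples. Ifih1 (MDA5), a receptor for long double-stranded RNA, was at 10.98 in both, a difference of -0.001 that became 0.06 after centring on a loess curve over mean brightness. Ddx58 (RIG-I), a receptor for RNA with a free triphosphate end, was at 11.50 on the wildtype and 11.61 on the impaired array (0.12). Dhx58 (LGP2), their regulator without a signalling domain, was at 9.43 and 9.45 (0.02). Zbp1, a sensor of Z-form nucleic acid that can trigger necroptosis, was at 11.68 and 11.75 (0.07). The 4 sensors thus spanned -0.001 to 0.12, close to the median of all genes.

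**Figure D2:**
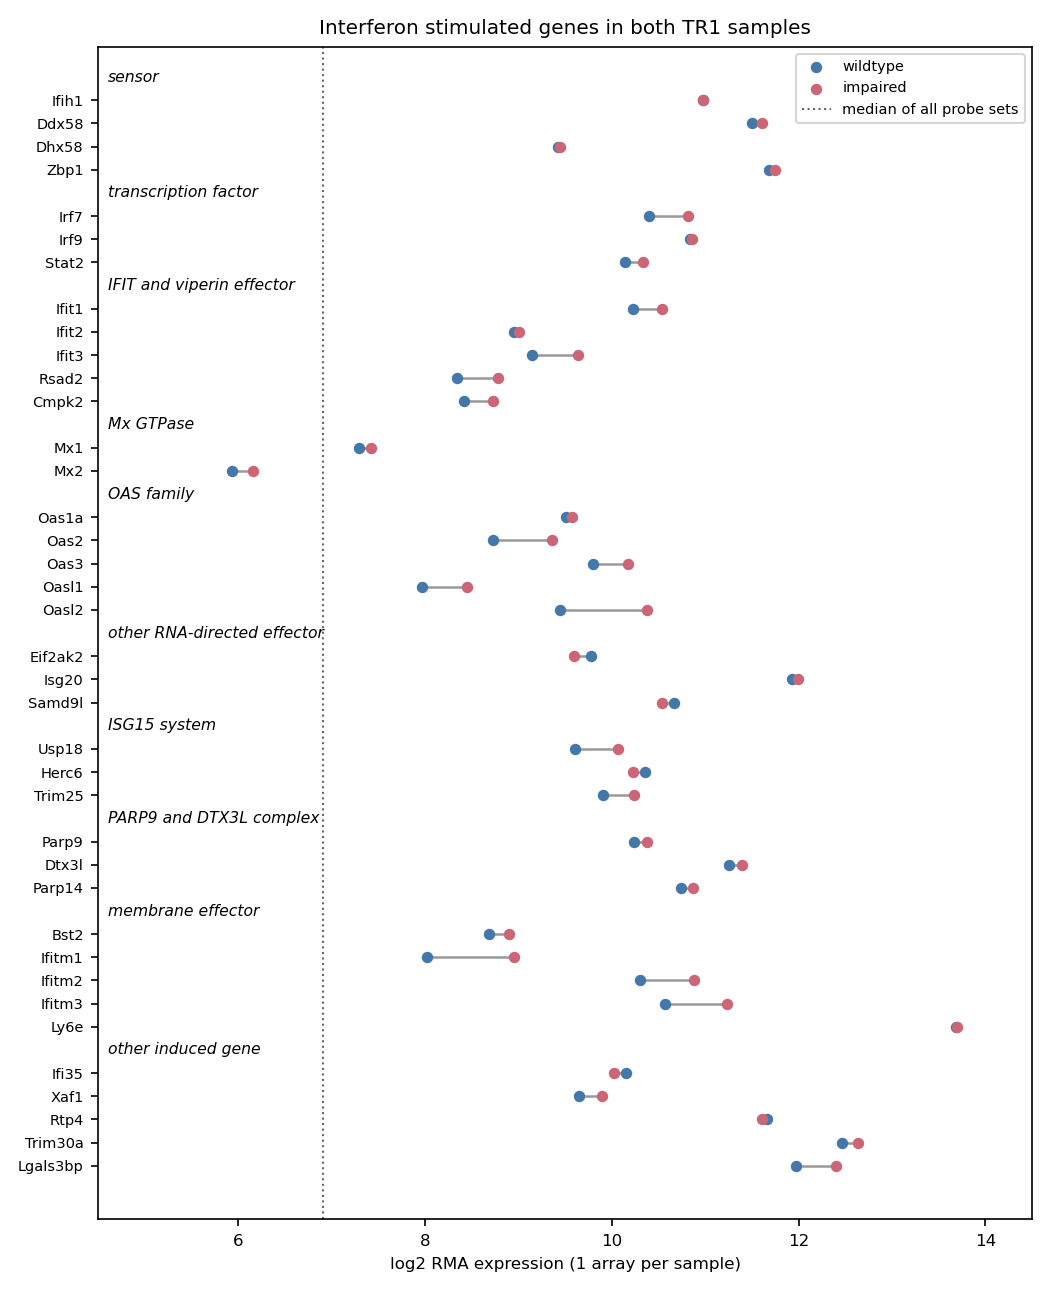
Log2 RMA expression of the 38 measured interferon stimulated genes (horizontal axis) in the wildtype sample (blue) and the impaired sample (red), 1 array each, in groups by role; the dotted line is the median of all probe sets, 6.91. The points of the sensors almost coincide, while those of Oasl2 and Ifitm1 are the farthest apart, at 0.93 each, and Mx2 alone lies below the line in both samples.

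The 5 OAS family genes on the list were all brighter in the impaired sample, by unequal amounts. OAS enzymes make 2′-5′ oligoadenylate when they meet double-stranded RNA, which activates RNase L. Mouse OASL2 keeps this enzyme activity, and OASL1 lacks it. Oasl2 was at 9.45 on the wildtype and 10.38 on the impaired array (0.93, 1.91-fold), the largest difference of the list. Oasl1, reported to restrain translation of IRF7, was at 7.96 and 8.45 (0.49, 1.40-fold). Oas2 was at 8.72 and 9.36 (0.63, 1.55-fold), and Oas3 at 9.80 and 10.18 (0.37). Oas1a was at 9.51 and 9.58 (0.07), and a further probe set that lists Oas1a with another symbol was not used. Of OAS genes outside the list, Oas1b was dimmer, at 9.28 and 9.17 (-0.12), and Oas1c brighter, at 7.30 and 7.47 (0.17). The OAS family is a set of close paralogs, and cross-hybridization between them was not tested.

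The IFIT genes and the viperin pair were brighter too, all by less than 1.5-fold. IFIT proteins bind viral RNA by its 5′ end and block its translation. Ifit3 was at 9.14 on the wildtype and 9.63 on the impaired array (0.49, 1.41-fold), Ifit1 at 10.22 and 10.54 (0.31), and Ifit2 at 8.96 and 9.01 (0.06). Rsad2 (viperin), which makes a chain-terminating nucleotide, was at 8.34 and 8.78 (0.44). Cmpk2, a mitochondrial nucleotide kinase, was at 8.42 and 8.73 (0.31). Ifit2 stood apart from its neighbours Ifit1 and Ifit3, with a difference near 0.

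The Mx genes, which encode antiviral GTPases, lay low on both arrays and differed little. Mx1 was at 7.30 on the wildtype and 7.42 on the impaired array (0.12). Mx2 was at 5.93 and 6.15 (0.22), below the median of all probe sets in both, so the size of its difference is uncertain. The other 37 measured members had a mean of both samples above that median.

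The 3 remaining effectors that act on RNA or on translation did not share a direction. Eif2ak2 (PKR), which phosphorylates the initiation factor eIF2 alpha on meeting double-stranded RNA, was at 9.78 on the wildtype and 9.60 on the impaired array, a difference of -0.18 and the lowest of the list. Samd9l, a restriction factor that also limits cell growth, was at 10.67 and 10.54 (-0.13). Isg20, a 3′ exonuclease, was at 11.93 and 12.00 (0.07). None of the 3 reached 1.5-fold.

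Genes of the ISG15 system went in both directions. ISG15 is a ubiquitin-like protein that is joined to other proteins, and USP18 removes it and also blocks the receptor chain IFNAR2. Usp18 was at 9.61 on the wildtype and 10.06 on the impaired array (0.45, 1.37-fold). Trim25, a ubiquitin ligase that acts on RIG-I, was at 9.90 and 10.24 (0.34). Herc6, the main ISG15 ligase in mice, was at 10.35 and 10.22 (-0.13). Isg15 itself was not measured by the rule used.

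The PARP9 group had nearly identical differences. PARP9 and the ubiquitin ligase DTX3L form a complex, and PARP14 is an ADP-ribosyltransferase encoded beside them. Parp9 was at 10.24 on the wildtype and 10.37 on the impaired array (0.13), Dtx3l at 11.26 and 11.39 (0.14), and Parp14 at 10.74 and 10.87 (0.13). All 3 lay higher than 70.5% to 71.7% of all genes, which is well inside the bulk.

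Of the membrane effectors, the IFITM genes had larger differences than the other members of that group. IFITM proteins sit in the plasma and endosomal membranes and hinder the fusion of viruses. Ifitm1 was at 8.03 on the wildtype and 8.96 on the impaired array (0.93, 1.90-fold). Ifitm3 was at 10.57 and 11.24 (0.66, 1.58-fold), and Ifitm2 at 10.30 and 10.88 (0.59, 1.5-fold). The second probe set of Ifitm1 differed by 0.67, and the other 2 of Ifitm2 by 0.25 and 0.53, so that all 6 IFITM probe sets were brighter in the impaired sample and their sizes disagreed. The 3 genes are close paralogs, and cross-hybridization was not tested. Ifitm2 was no longer 1.5-fold brighter as the mean of its 3 probe sets (0.46). IFITM genes are also expressed by epithelial, stromal and myeloid cells, and enterocyte markers (median 0.90) and neutrophil markers (median 1.68) moved the same way, while stromal and endothelial markers had a median of 0.11. The part of these cells in the IFITM values was not tested.

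Bst2 and Ly6e gave smaller values. Bst2 (tetherin), which holds budding virus at the cell surface and is also a marker of plasmacytoid dendritic cells, was at 8.69 on the wildtype and 8.90 on the impaired array (0.21). The 6 measured markers of those cells, the main makers of interferon alpha, had a median difference of 0.07. Pacsin1 had the largest, at 7.08 and 7.62 (0.54), and Siglech, which defines them, lay below the median of all probe sets in both (5.91 and 6.03). Ccr9, 1 of the 6, was about as bright as Cd4, at 13.07 and 13.09 (0.02). Which cells its signal came from was not tested. Ly6e, a surface protein that is also high on T cells without interferon, was at 13.69 and 13.70 (0.01).

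The remaining genes were mixed. Lgals3bp, a secreted glycoprotein that is also made by epithelium, was at 11.97 on the wildtype and 12.40 on the impaired array (0.43, 1.35-fold). Xaf1, a promoter of apoptosis, was at 9.64 and 9.89 (0.25), and Trim30a, which dampens NF-kB signalling, at 12.46 and 12.63 (0.17). Rtp4, a chaperone of membrane receptors, was at 11.67 and 11.61 (-0.06), and Ifi35, a partner of NMI, at 10.16 and 10.02 (-0.14). The 6 members below 0 were therefore Eif2ak2, Ifi35, Samd9l, Herc6, Rtp4 and Ifih1, and all 6 lay within 0.18 of 0. After loess centring Ifih1 left this group.

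**Figure D3:**
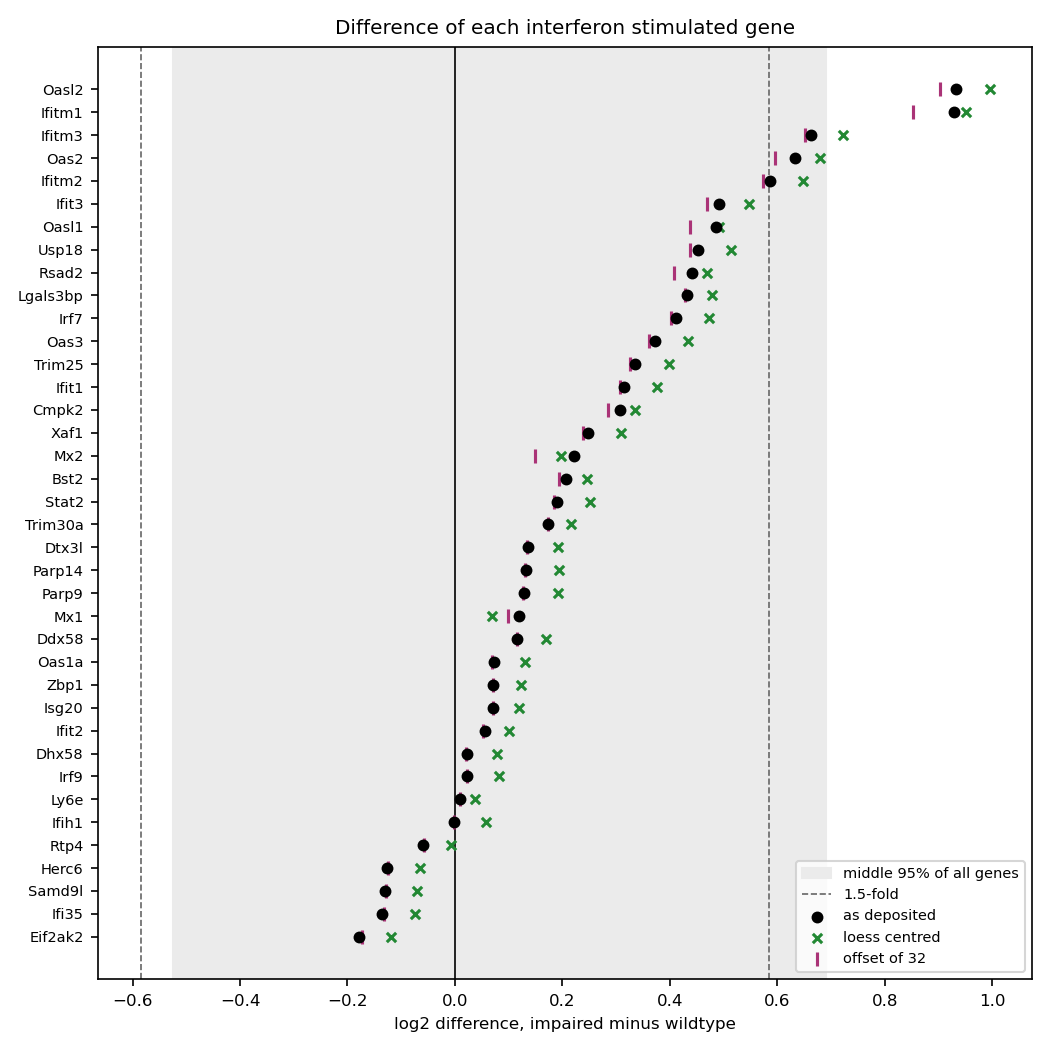
Log2 difference, impaired minus wildtype (horizontal axis), of each measured interferon stimulated gene from the values as deposited (black), after centring on a loess curve (green) and with 32 added to the linear signal (purple); the band holds the middle 95% of all genes and the dashed lines mark 1.5-fold. Oasl2, Ifitm1, Ifitm3 and Oas2 lie beyond 1.5-fold on all 3 scales, and Ifitm2 falls just short of it with the offset.

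Many of the list's genes lie side by side in families, and 16 measured members fell into 6 groups of neighbours, at most 10 protein-coding genes apart in RefSeq order. The IFITM group on chromosome 7 ran from 0.59 to 0.93, and Oasl1 and Oasl2 on chromosome 5 had 0.49 and 0.93. The other group on chromosome 5 held Oas2 (0.63), Oas3 (0.37) and Oas1a (0.07). On chromosome 19 the IFIT genes ran from 0.06 to 0.49, and on chromosome 12 Rsad2 and Cmpk2 had 0.44 and 0.31. The PARP9 group on chromosome 16 ran from 0.13 to 0.14. All 16 lay above 0, against 84.2% of the 38 measured members, these 16 included, and 51.5% of all genes. Of the 16, Ifit2, Oas1a and the PARP9 group lay within 0.14 of 0. Only genes of the list were grouped. Outside it, Oas1b differed by -0.12 and Oas1c by 0.17. Within the OAS and IFIT groups the sizes were unequal, and without replicates it cannot be said whether by more than array noise.

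**Figure D4:**
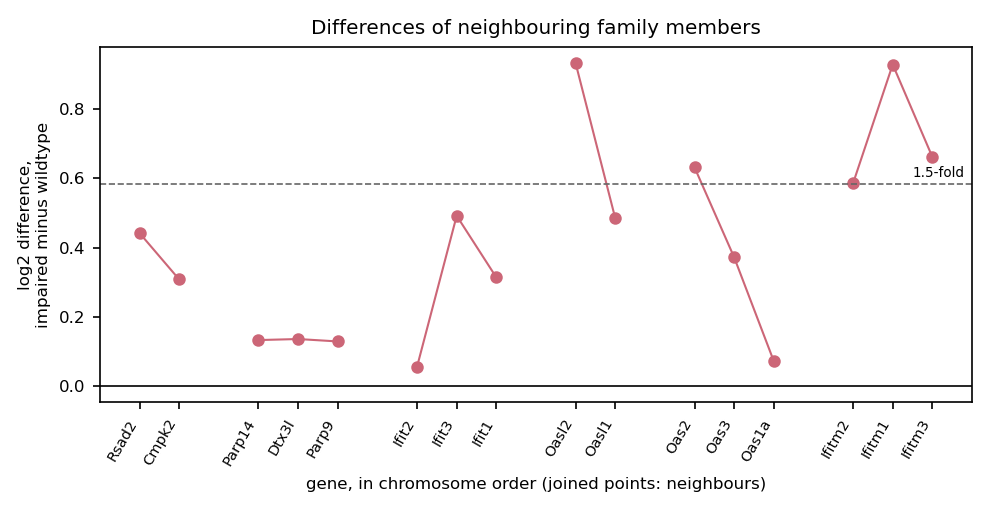
Log2 difference, impaired minus wildtype (vertical axis), of the 16 measured interferon stimulated genes that lie near another one, in chromosome order, with lines joining neighbours; the dashed line marks 1.5-fold. All 16 points lie above 0, the PARP9 group is flat at 0.13 to 0.14, and Oas1a and Ifit2 lie near 0 beside higher neighbours.

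The type I and III interferon ligand genes were mostly dim and were nearly equal in both samples. Of 20 listed type I and III interferon genes 14 were measured, and 11 of them on the wildtype and 12 on the impaired array lay below the median of all probe sets. Ifnb1 was at 5.005 and 5.182 (0.18). The largest absolute difference was that of Ifna2, at 6.97 and 6.73 (-0.24), and the median was 0.02. None of the 14 reached 1.5-fold. Ifng, the type II interferon, was bright in both, at 12.50 and 12.29 (-0.22).

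The receptor chains for type I interferon were nearly equal as well. Ifnar1 was at 9.85 in both samples, and Ifnar2 at 11.12 on the wildtype and 10.93 on the impaired array (-0.19). Ifngr2, the signalling chain of the interferon gamma receptor, was the only 1 of the 6 receptor genes past 1.5-fold, at 9.64 and 10.57 (0.93, 1.91-fold). Ifnlr1, the chain that type III interferon needs and that is typical of epithelium, was at 6.18 and 6.63 (0.45), below the median of all probe sets in both. Il10rb was at 10.13 and 10.30 (0.16).

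Among 13 measured signalling genes 6 (46.2%) were above 0, against 51.5% of all genes, and 7 below, with a median of -0.09, and 0 reached 1.5-fold. Socs3, a feedback inhibitor of cytokine receptors, differed by 0.41, and the transcription factors Irf8, Irf5 and Irf1 by 0.37, 0.32 and 0.28. The kinase Tyk2 differed by 0.22. Of 10 nucleic acid sensing genes 6 (60%) lay above 0, near the 51.5% of all genes, and the median of 0.21 became 0.07 over the 6 genes at or above the 75th percentile of probe sets. Tlr7, a receptor for single-stranded RNA found mainly in B cells and dendritic cells, was at 6.96 and 7.89 (0.93), while Tlr9 differed by 0.38, the adaptor Ticam1 by 0.33, Tlr3 by 0.32 and the adaptor Mavs by 0.23. B cell markers had a median of 0.60 over 9 genes, with 8 (88.9%) above 0, against 51.5% of all genes, and 1 below. Cd74 (1.16) and H2-Eb1 (0.99) had the largest differences. On each array 4 of the 9 lay below the median of all probe sets. The part of B cells in the Tlr7 value was not tested.

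Other genes that interferon induces had a smaller median than the main list. Of 68 such genes 59 were measured, 37 of these (62.7%) lay above 0, against 51.5% of all genes, and the median was 0.13. At 1.5-fold or more 3 (5.08%) were brighter, near the 3.58% of all genes. These were Ifi205, a nucleic acid binding protein (0.66), Lgals9, a galectin (0.62), and Nlrc5, which activates MHC class I genes (0.60). Ifi205 lay below the median of all probe sets on the wildtype array, at 6.42, and above it on the impaired array, at 7.08. The Nlrc5 value is the brightest of 19 probe sets, which ran from 0.09 to 0.60 with a mean of 0.23. Trim12c, a relative of Trim5 encoded near Trim30a, was more than 1.5-fold dimmer, at 9.50 on the wildtype and 8.78 on the impaired array (-0.71), the only 1 so (1.69%, against 1.8% of all genes). Pnp, a purine enzyme, differed by -0.54. With the mean of both samples at or above the 75th percentile of probe sets, the median of this list was 0.02 over 43 genes, against -0.05 for all genes so limited.

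Genes known mainly for their response to interferon gamma gave a median of 0.12 over 12 of 20 listed, with 9 (75%) above 0, against 51.5% of all genes, and 3 below. Cxcl10, a chemokine for activated T cells that both kinds of interferon induce, was at 10.40 and 11.07 (0.67). Ciita, which activates MHC class II genes, was at 6.07 and 6.67 (0.60), below the median of all probe sets in both. The GTPases differed by less: Gbp7 by 0.24, Irgm1 by 0.22 and Gbp8 by -0.21. The difference between these lists and the 38 interferon stimulated genes was not tested.

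**Figure D5:**
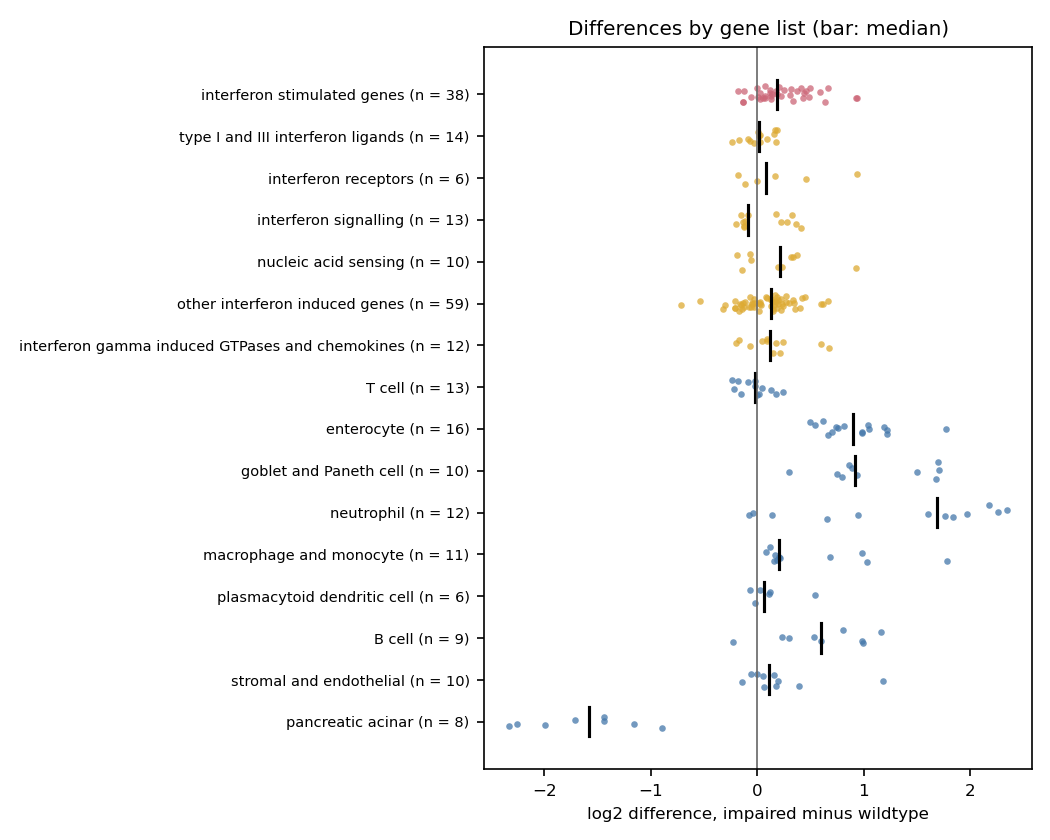
Log2 difference, impaired minus wildtype (horizontal axis), of each measured gene in the 38 interferon stimulated genes (red), the other interferon lists (yellow) and the markers of T cells and other cell types (blue); the black bar is the list's median. The interferon lists have medians between -0.09 and 0.21, while enterocyte (0.90), goblet and Paneth (0.92) and neutrophil (1.68) markers lie far to the right and pancreatic acinar markers (-1.58) to the left.

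Several other cell types differed between the samples in the direction of most interferon stimulated genes. Goblet and Paneth cell markers had a median of 0.92 over 10 genes and summed linear signals of 28623 on the wildtype and 48639 on the impaired array, with Ang4 at 1.71 and Lyz1 at 1.70. Macrophage and monocyte markers were all above 0 (11 of 11, against 51.5% of all genes), with a small median of 0.21. Lyz2 (1.78) and Tyrobp (1.03) had the largest differences of that list. On the wildtype array 7 of the 11 lay below the median of all probe sets, and on the impaired array 5. Epithelial, myeloid and B cells can express many interferon stimulated genes, and their part in the members' values was not tested. Among bright probe sets the background differed: of the 31 members at or above the 75th percentile of probe sets 25 (80.6%) lay above 0, against 40% of all 5618 genes there.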

How the data were processed

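Per the submitters' processing notes, the authors made the deposited log2 values with affy and RMA, whose versions, like the build, are not given in the sources used. The table holds 34760 probe sets, with medians of 6.89 (wildtype) and 6.92 (impaired). Per the labels' protocols, the array took biotin-labelled cDNA primed with oligo(dT). The number of arrays, 1 per group, limits the precision of every value, and RMA compresses differences of dim probe sets.

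GEO's platform annotation gave 1 symbol for 21640 probe sets, several for 1321 and none for 11799. All measured genes were counted, dim ones included. Genes were counted by sign and by size (1.5-fold and 2-fold), with no test. Every measured member was named; of the other lists, up to 5 genes (2 for cell markers) with the largest absolute difference, plus Ifnb1, Ifnar1, Ifnar2, Ifng and Irf1. An item the rule also names is not reported here. Il10, Il10ra, Cd4 and Cd8a were added to check the labels, chosen after their values were seen. Ccr9 was likewise added after its values were seen, for its brightness. Oas1b and Oas1c were added the same way, as further OAS genes. Members and lists were chosen with earlier results of these data known. On simulated data with planted differences, the recovered medians were checked on the plain and loess-centred scales. The simulated noise was even, with no trend over brightness, and the counts were not checked. Alternatives were loess centring (span 0.3), an offset of 32, the mean of probe sets and 3 floors. Scripts ran under Python 3.11.15 with pandas 2.3.3, statsmodels 0.14.6 (loess) and numpy 2.4.6.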

Additional observations from a re-analysis of the deposited data

How the results depend on the processing

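The direction of the members' median held under the 6 alternatives run: 0.21 after loess centring, 0.16 with the offset of 32, 0.18 with the mean of probe sets, 0.17 with a floor at the median of probe sets on the brighter sample or on the mean, and 0.13 (31 members) with a floor at the 75th percentile. After loess centring 33 of 38 members lay above 0, against 54.4% of all genes. With the 75th percentile floor 25 of 31 did, against 40% of the genes so limited. The other settings gave 32 of 38 or 31 of 37, against 49.4% to 51.5% of genes. The count at least 1.5-fold brighter was 4 or 5, against 2.57% to 5.89% of genes. In each setting 0 members were 1.5-fold dimmer, against 0.707% to 1.78% of genes, and 0 were 2-fold different, against 0.667% to 1.65%. Ifih1 changed sign after loess centring (0.06), and Ifitm2 fell below 1.5-fold with the offset (0.57) and with the mean of probe sets. No alternative moved a member's difference or an interferon list's median by as much as 0.22, the scaled median absolute deviation of all genes' differences. The cell marker lists were not run under the alternatives. No type I or III interferon gene passed the 75th percentile floor. The ligands' median became -0.07 with the floor on the brighter sample, where 3 genes remained. It was 0.05 with the median floor on the mean, where 2 remained. The nucleic acid sensing median was 0.07 with the 75th percentile floor. No paired analysis was possible because each group has 1 sample and no result comes from a test. Leaving out a replicate was likewise not possible. The scanner files were not used here, so the background correction and normalization could not be varied.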
